A study of Mus musculus with 12 samples.

Results

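Replication-dependent histone genes encode the linker histone H1 and the core histones H2A, H2B, H3 and H4, the proteins around which DNA is wound. They were followed in total RNA libraries of mouse primary myotubes, the multinucleated muscle cells formed by fusion of cultured myoblasts. The members were chosen by symbol alone: every gene of the deposited table whose GENCODE M21 symbol begins with Hist1h to Hist4h. GENCODE M21 holds 70 such genes, and 63 of the 20201 genes in the table were among them; the other 7 were not analysed here. A mean of 10 or more normalized counts over the 12 libraries was reached by 55 of the 63, and changes were tested for these.

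Cells of proliferating tissues make most of this RNA during DNA synthesis, from intronless genes gathered in clusters. The transcripts usually end just after a conserved stem-loop in place of a poly(A) tail, and a library made from total RNA can hold both kinds of end. In differentiated cells, which have left the cell cycle, some of these genes are also known to give polyadenylated transcripts.

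The myoblasts came from mice carrying floxed Bmal1, a gene of the circadian clock listed here as Arntl, and all 12 cultures received an adenovirus for 48 hours. The virus carried Cre, which deletes the floxed part, or was empty, and 6 hours of exposure to 21% or 1% oxygen followed. The sample labels give 2 groups of 6: libraries labelled wildtype and 21% oxygen (Myotube1 to Myotube3 and Myotube7 to Myotube9), and libraries labelled Bmal1 knockout and 1% oxygen (Myotube4 to Myotube6 and Myotube10 to Myotube12). Genotype and oxygen cannot be told apart from these labels. The titles form 4 blocks of 3 consecutive numbers, and a difference between blocks is reported here only as that. No label says whether the libraries came from separate animals or cultures, so the p-values reflect only variation among these samples, part of which may be technical.

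Arntl ranged from 133 to 179 normalized counts under the wildtype label and from 41.7 to 48.6 under the knockout label. Egln3, a gene switched on in low oxygen, did not follow the oxygen label: it stood at 194 to 270 in Myotube1 to Myotube6 and at 2036 to 2258 in Myotube7 to Myotube12. The libraries held 6376584 to 12463339 reads, of which 11 very abundant genes took 50.5% to 66.2%. Myotube2 stood apart, with 29.6% of genes at 0 against 13.0% to 21.9% in the other libraries. Of the reads outside the abundant genes, 0.133% to 0.225% fell on the histone genes, a median of 102 reads per tested gene and library.

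The stem-loops of the members that fell between the labels, and of Hist1h4d, the H4 gene with the highest normalized count, are shown first, because this short element marks the messages of these genes. They were read from GENCODE M21 transcripts (GRCm38) as sense DNA, 5′ to 3′, with the 16-base stem-loop in capitals and 5 bases on each side.
Hist1h1c: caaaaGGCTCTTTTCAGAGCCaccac
Hist1h1d: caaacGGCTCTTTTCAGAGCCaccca
Hist1h1e: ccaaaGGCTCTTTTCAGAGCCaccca
Hist1h2be: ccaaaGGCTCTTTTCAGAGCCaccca
Hist1h4d: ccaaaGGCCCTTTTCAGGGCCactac
Hist1h4i: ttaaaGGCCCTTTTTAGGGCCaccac
The pattern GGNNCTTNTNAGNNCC, searched on the sense strand, was found in the annotated transcripts of 40 of the 55 tested members and in 0.412% of other protein-coding genes. It took 8 forms, and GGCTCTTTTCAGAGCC was the form of 21 members. For the remaining 15 these letters were not in the annotated transcript. Hist1h2bc, an H2B gene, was one of them: its single annotated transcript of 1156 bases has 2 exons. Others of the 15 have short annotated transcripts, as Hist1h4k with 312 bases and Hist1h2bl and Hist1h2bn with 381. A stem-loop past the annotated end could not be found by this search.

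Most members lie in the Hist1 cluster on chromosome 13, with 47 of the 55 tested genes. The Hist2 cluster on chromosome 3 held 6, and the Hist3 cluster on chromosome 11 and the Hist4 gene on chromosome 6 held 1 each. By type, 5 of 6 H1 genes, 15 of 17 H2A genes, 11 of 15 H2B genes, 11 of 12 H3 genes and all 13 H4 genes of the table reached the minimum.

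Levels of the tested members spanned from 11.5 to 735 normalized counts, with a median of 93.0. Hist1h2bp at 11.5, Hist1h2ah at 15.8 and Hist1h2ad at 22.3 stood just above the minimum of 10. Just below it were Hist1h2bq at 7.24, Hist2h2be at 6.76 and Hist2h2ab at 5.51. The H1 gene known from the testis, Hist1h1t, had a mean of 0.786 and lay between 0 and 3.38 in the libraries.

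Per kilobase of the longest annotated transcript, the highest mean levels were those of Hist2h2aa2 at 639, Hist1h4h at 569, Hist1h2ap at 487, Hist1h1c at 471 and Hist1h4m at 465 normalized counts. Many members are near-identical copies: for 28 of the 55, over 50% of the 50-base stretches of the transcript also occurred in another member, so their own levels are uncertain. The share was 100% for Hist2h2aa2, an H2A gene, 93.1% for Hist1h2ap, 89.8% for Hist1h4m and 45.8% for Hist1h4h. It was 8.54% for Hist1h1c, 2.21% for Hist1h1d and 29.4% for Hist1h2bc. For Hist1h1e it was 32.0%, mostly with Hist1h2be, an H2B gene that overlaps it on the same strand. Stretches also occurred in genes outside the members: 100% for Hist2h2aa2 and 79.7% for Hist2h3b, both with Gm20634 as the closest. The outside share was 31.5% for Hist3h2a, with Trim17 the closest, and 14.4% for Hist1h1e. It was 0% for Hist1h1c, 0.0407% for Hist1h1d and 0.723% for Hist1h2bc.

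H1 was the histone type whose summed level differed most between the labels. Summed H1 levels were 1837, 1454 and 1832 normalized counts in Myotube1 to Myotube3, and 1945, 2009 and 1774 in Myotube7 to Myotube9. In the libraries labelled knockout they were 1364, 1334 and 1253 in Myotube4 to Myotube6, and 1000, 1097 and 1035 in Myotube10 to Myotube12. Every library labelled knockout lay below every library labelled wildtype, with Myotube2 the lowest of the latter.

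The mean H1 sum was 1809 ± 193 (SD, n = 6) under the wildtype label and 1180 ± 157 (SD, n = 6) under the knockout label, a log2 ratio of -0.62. For H4 the means were 1814 ± 307 and 1529 ± 83.9, a log2 ratio of -0.25. H2A, H2B and H3 gave log2 ratios of -0.05, 0.04 and -0.02. Scaling each library to its reads outside the abundant genes shifted all genes alike, with an all-gene median of -0.16, and the ratios became -0.77 for H1, -0.41 for H4, -0.22 for H2A, -0.12 for H2B and -0.18 for H3. The sign for H2B thus depends on the scaling. The groups of the 4 core types overlapped, for H4 through Myotube2 alone. The H4 sum was 1287 in Myotube2 and 1745 to 2228.5 in the other libraries labelled wildtype. Under the knockout label it was 1428 to 1644. The sums of all types carry no test.

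**Figure D1:**
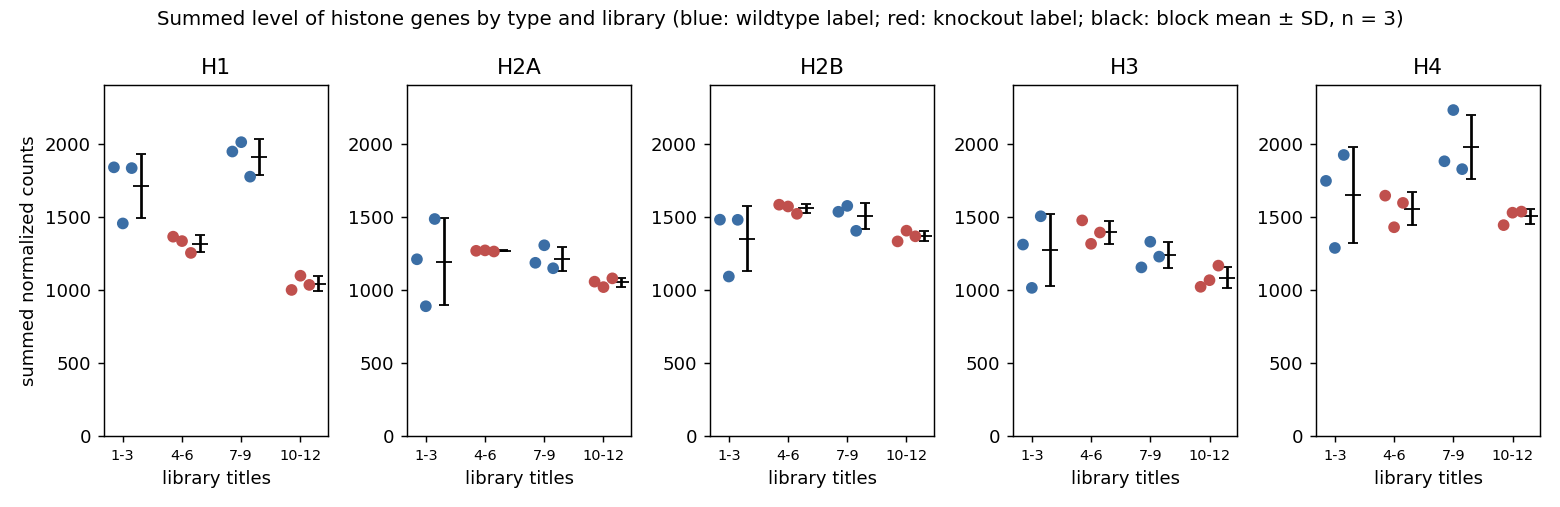
Summed level of the histone genes of each type, in normalized counts (y axis), by library title block (x axis). Blue points are libraries labelled wildtype, red points libraries labelled knockout, and black bars the block mean ± SD (n = 3). The H1 points of the knockout label lie between 1000 and 1364 and those of the wildtype label between 1454 and 2009. The core types overlap, H4 through Myotube2 alone.

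Between the labels, 1 histone gene rose and 5 fell (limma on log2 of the normalized count + 1, Benjamini-Hochberg adjusted over 12553 genes, two-sided). Of all genes tested, 19.2% were called, 10.2% higher and 9.07% lower, so the 6 of 55 members (10.9%) are fewer than the background share. The genes that fell were the linker histone genes Hist1h1c, Hist1h1d and Hist1h1e, the H2B gene Hist1h2be and the H4 gene Hist1h4i. The gene that rose was Hist1h2bc. The median log2 fold change over the members was -0.18 against -0.00 over all genes, and 44 of 55 had a negative value. By shared sequence, 44 of the 63 members in the table were linked in 7 groups, so these signs are not independent. No member called here moved past 2-fold, which 396 genes of the table did.

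Called changes by type were 3 of 5 for H1, all lower, 2 of 11 for H2B, 1 in each direction, and 1 of 13 for H4, lower. H2A with 15 genes and H3 with 11 had 0 called by limma. At an unadjusted p under 0.05, 1 H2A and 1 H3 gene passed.

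Hist1h1c (chromosome 13, 23738808 to 23740367, plus strand, mm10) is a single-exon linker histone gene and had the highest level of all members. Its normalized counts were 1012, 671 and 936 in Myotube1 to Myotube3, and 1092, 1039 and 959 in Myotube7 to Myotube9. In Myotube4 to Myotube6 they were 650, 584 and 555, and in Myotube10 to Myotube12 they were 413, 470 and 440. All 6 libraries labelled knockout were below all 6 labelled wildtype, by a small margin between Myotube4 and Myotube2.

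Hist1h1c was 1.84-fold lower under the knockout label (log2 fold change -0.88, SE 0.13; limma adjusted p = 0.000466). It made up 46.1% to 56.1% of the H1 sum in the libraries labelled wildtype and 41.3% to 47.7% in those labelled knockout, so the share overlapped where the level did not.

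Hist1h1d (chromosome 13, 23553262 to 23560686, plus strand) stood at 262, 246 and 242 normalized counts in Myotube1 to Myotube3 and at 305, 337 and 286 in Myotube7 to Myotube9. Under the knockout label it stood at 208, 218 and 208, then at 193, 194 and 204. The labels did not overlap, and the log2 fold change was -0.45 (SE 0.09; limma adjusted p = 0.00347).

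Hist1h1e (chromosome 13, 23620629 to 23622558, minus strand) read 359, 336 and 420 in Myotube1 to Myotube3 and 411, 455 and 375 in Myotube7 to Myotube9. Under the knockout label it read 323, 332 and 309, then 273, 301 and 278. The labels were again separate, with a log2 fold change of -0.37 (SE 0.09; limma adjusted p = 0.00877). The other H1 genes, Hist1h1a and Hist1h1b, had log2 fold changes of -0.32 and -0.23 that did not pass (limma adjusted p = 0.310 and 0.445), and their labels overlapped.

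Hist1h2bc (chromosome 13, 23684199 to 23692908, plus strand) was the H2B gene with the highest level and went the other way. It read 412, 240 and 413 in Myotube1 to Myotube3 and 418, 405 and 395 in Myotube7 to Myotube9. Under the knockout label it read 609, 627 and 548, then 622, 554 and 533. All libraries labelled knockout were above all libraries labelled wildtype, with or without the low Myotube2.

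Hist1h2bc was 1.55-fold higher under the knockout label (log2 fold change 0.63, SE 0.13; limma adjusted p = 0.00302). It supplied 22.0% to 28.2% of the H2B sum under the wildtype label and 36.1% to 46.7% under the knockout label. The other H2B genes together stood at 1047 ± 110 (SD, n = 6) under the wildtype label and at 880 ± 103 under the knockout label. Only Hist1h2bl shared over 50% of the shorter transcript's stretches with Hist1h2bc (56.9%). When Hist1h2bc was summed with it and the 9 further H2B genes linked through one another in this way, the sum was not called (log2 fold change 0.07; limma adjusted p = 0.672).

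Hist1h2be and Hist1h4i passed the test narrowly. Hist1h2be, whose annotated transcripts overlap Hist1h1e, averaged 163 ± 19.6 (SD, n = 6) under the wildtype label and 125 ± 20.1 under the knockout label, and the labels overlapped (log2 fold change -0.38, SE 0.12; limma adjusted p = 0.0457). Hist1h4i read 39.6, 37.2, 39.2, 39.4, 51.6 and 37.8 under the wildtype label and 33.8, 26.1, 34.6, 9.75, 24.8 and 19.1 under the knockout label. Its labels did not overlap (log2 fold change -0.80, SE 0.26; limma adjusted p = 0.0488). Both calls were lost in edgeR's quasi-likelihood test, with adjusted p = 0.0611 and 0.0639. They were also lost in limma when any of 10 and 9 single libraries, respectively, was left out (adjusted p up to 0.0923 and 0.100).

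The called members were also those whose libraries separate by label, apart from Hist1h2be. In 4 of the 55 members all libraries labelled knockout lay below all labelled wildtype, and in 1 they lay above, where 5.38% and 7.07% of all tested genes did so. Without Myotube2, limma called 10 members (18.2%), 1 higher and 9 lower, and 21.8% of all genes. With libraries scaled to the reads outside the abundant genes, the common shift to a median of -0.16 gave 14 members called, 1 higher and 13 lower, and 22.4% of all genes.

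**Figure D2:**
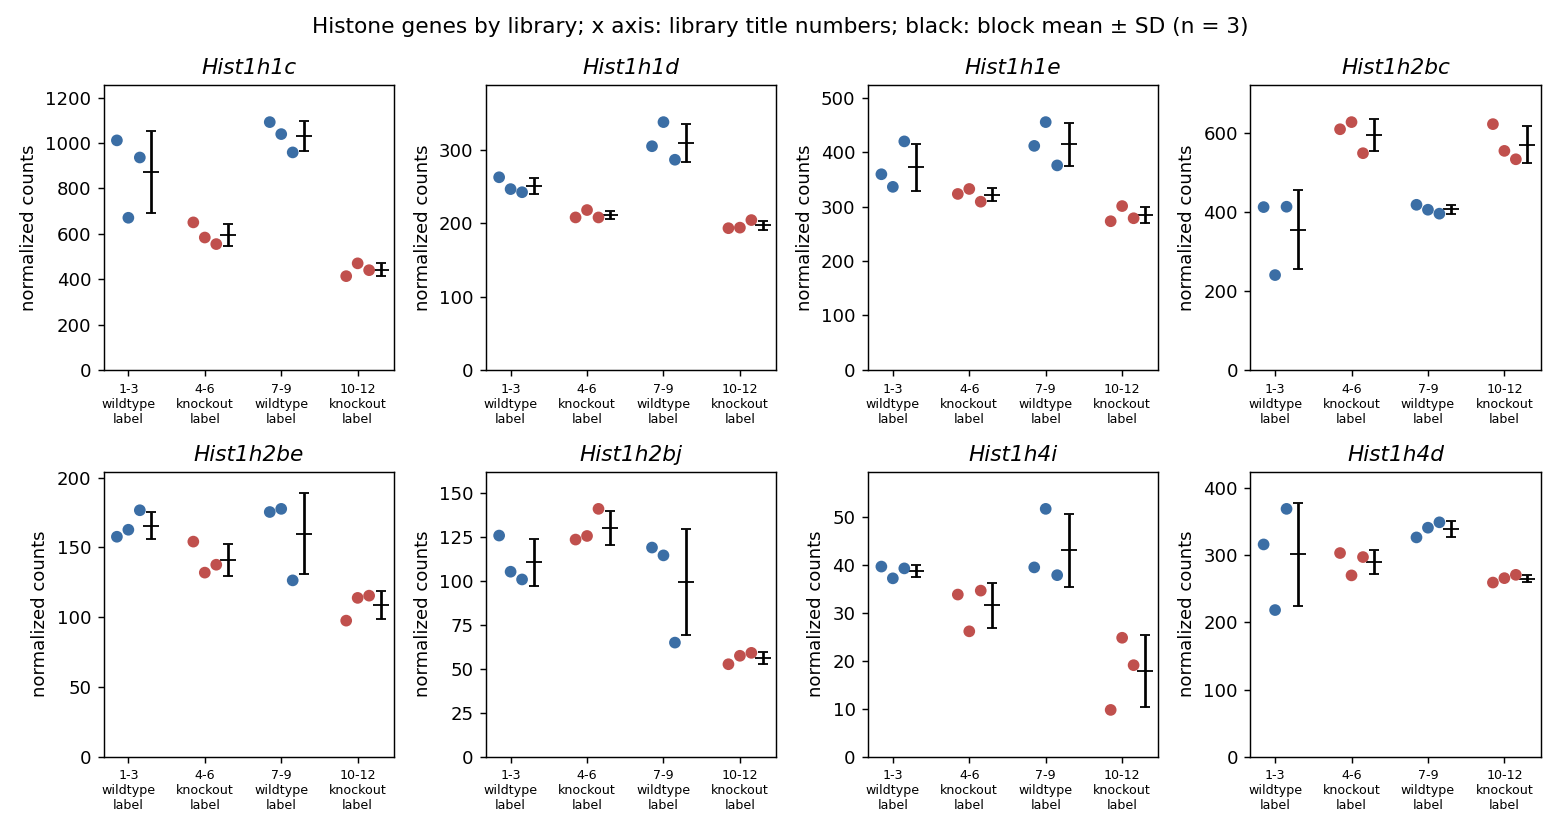
Normalized counts (y axis) of 8 histone genes in each library, by title block and label (x axis). Blue points are libraries labelled wildtype, red points those labelled knockout, and black bars the block mean ± SD (n = 3). Hist1h1c, Hist1h1d, Hist1h1e and Hist1h4i are lower and Hist1h2bc is higher in every library labelled knockout.

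The highest members of the other core types did not pass between the labels. Hist2h2aa2, an H2A gene, read 388, 180, 456, 348, 372 and 344 under the wildtype label and 343, 366, 350, 271, 306 and 323 under the knockout label (log2 fold change -0.04, SE 0.18; limma adjusted p = 0.901). Hist1h3f, an H3 gene, read 209, 164, 217, 157, 188 and 202 under the wildtype label and 218, 198, 212, 117, 155 and 175 under the knockout label (log2 fold change -0.10, SE 0.15; limma adjusted p = 0.708). In both genes the labels overlapped, and Myotube2 was the lowest library for Hist2h2aa2. Hist1h4d, an H4 gene, read 316, 218, 369, 327, 341 and 349 under the wildtype label and 303, 270, 297, 259, 266 and 271 under the knockout label. Its labels overlapped through Myotube2 alone, and its log2 fold change of -0.19 (SE 0.11; limma adjusted p = 0.297) passed without Myotube2 (-0.29; limma adjusted p = 0.00898).

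Among Myotube1 to Myotube6, the libraries labelled knockout differed from those labelled wildtype in 3 histone genes, 1 higher and 2 lower, where 18.8% of all genes were called, 10.8% higher and 7.97% lower. Hist1h2bc was higher by 0.78 on the log2 scale (SE 0.17; limma adjusted p = 0.00580). Hist1h1c fell by 0.53 (SE 0.13; limma adjusted p = 0.0131), a call lost without Myotube6 (adjusted p = 0.0538).

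The H4 gene Hist1h4k read 48.4, 60.4 and 53.3 in Myotube1 to Myotube3 and 28.8, 14.9 and 38.2 in Myotube4 to Myotube6. These blocks did not overlap, Myotube5 was the lowest, and the log2 fold change was -1.05 (SE 0.33; limma adjusted p = 0.0457). The call was lost when any of 9 single libraries was left out, with the smallest change without Myotube5 (log2 fold change -0.68; limma adjusted p = 0.165). Of the 50-base stretches of Hist1h4k, 71.5% also occurred in another member, so its own level is uncertain. The sum of the H4 genes linked with it by shared sequence was not called (log2 fold change -0.11; limma adjusted p = 0.593). The members' median was 0.05 against -0.00 over all genes. Without Myotube3, limma called 5 members, 4 higher and 1 lower, and 18.6% of all genes. Without Myotube2 it called 2, 1 in each direction, and 19.2% of all genes. Summed over all members, Myotube2 read 5736 normalized counts, where Myotube1 and Myotube3 read 7582 and 8221. The sums in Myotube4 to Myotube6 were 6918 to 7333. The part of Myotube2 in the members' median was not tested.

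Among Myotube7 to Myotube12, 9 histone genes were lower under the knockout label and 0 higher, where 16.5% of all genes were called, 7.64% lower and 8.84% higher. The median log2 fold change of the members was -0.30 against 0.00 over all genes, and 48 of 55 were negative. All 5 H1 genes and all 13 H4 genes had negative values, and members that share sequence are not independent in these counts. Hist1h1c fell by 1.22 on the log2 scale (SE 0.13; limma adjusted p = 6.8e-05), Hist1h1d by 0.65 and Hist1h1e by 0.54.

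The other called genes were Hist1h4i and Hist1h4m of the H4 type, Hist1h2be, Hist1h2bg and Hist1h2bj of the H2B type, and Hist1h2ae of the H2A type. Hist1h4i had the largest value, -1.30 (SE 0.30; limma adjusted p = 0.0107), and Myotube10, the lowest library at 9.75, lies near the floor of 3 reads, which is 5.85 there. The log2 fold changes of the remaining 5 lay between -0.94 and -0.54. Among these, Hist1h4m shared 89.8% and Hist1h2bj 59.4% of their 50-base stretches with other members, so their own levels are uncertain. The share was 49.7% for Hist1h2bg, 43.2% for Hist1h2ae and 16.3% for Hist1h2be. Hist1h4m summed with Hist1h4n was called (log2 fold change -0.56; limma adjusted p = 0.0162). The H2B sum that includes Hist1h2be, Hist1h2bg and Hist1h2bj was not (log2 fold change -0.12, limma adjusted p = 0.485). Nor was the sum of the H2A genes linked with Hist1h2ae by shared sequence (log2 fold change -0.16, limma adjusted p = 0.4975). Hist1h2bc was again above in all 3 libraries, by 0.48, and did not pass (SE 0.17; limma adjusted p = 0.0669), though edgeR's quasi-likelihood test called it (adjusted p = 0.0439).

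The number called here depended on single libraries. It was 17 without Myotube2, 4 without Myotube7, 3 without Myotube8, and 5 without Myotube10 or without Myotube11. The share of all genes called was 24.5%, 9.49%, 11.3%, 12.2% and 11.9% in that order. Hist1h1c, Hist1h1d and Hist1h1e passed whichever library was left out. Hist1h4i did not pass without Myotube8 (limma adjusted p = 0.0514), and the remaining 5 each failed without 1 or more of Myotube6 to Myotube12. With libraries scaled to the reads outside the abundant genes, 15 members were called, all lower, and 18.9% of all genes.

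**Figure D3:**
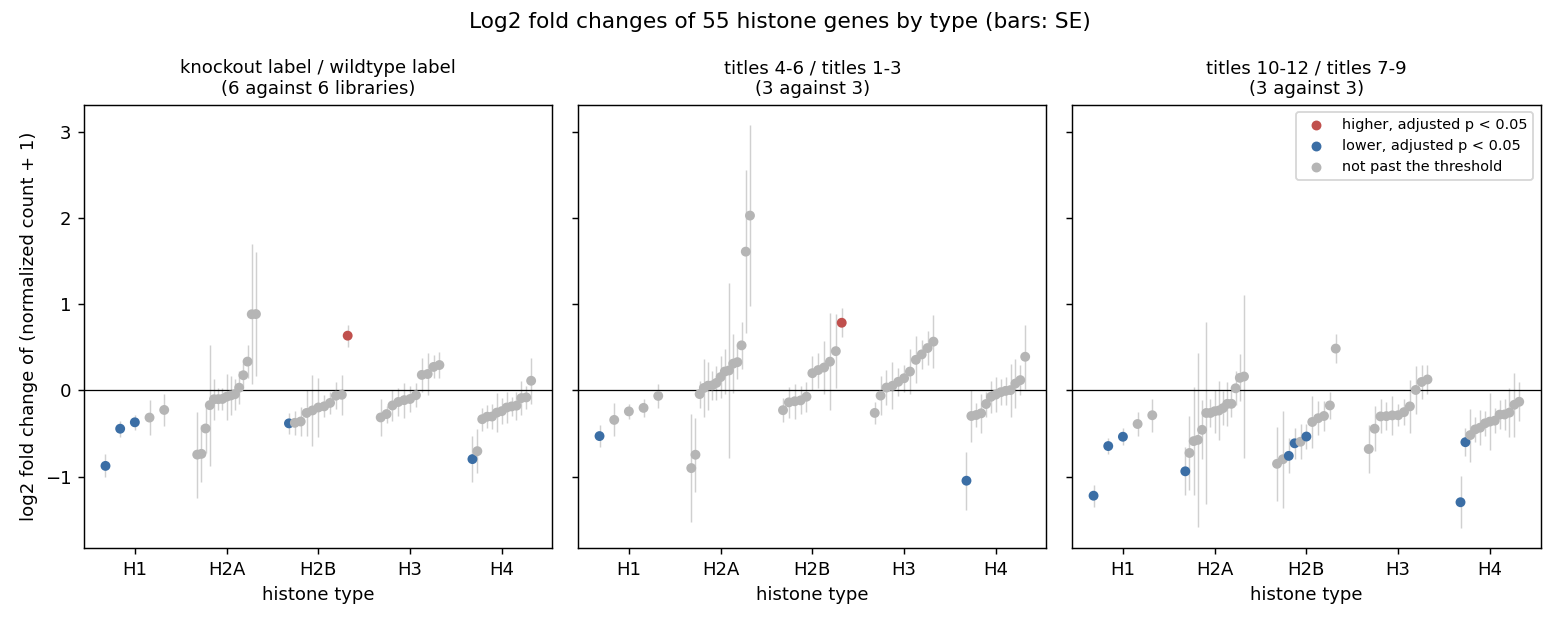
Log2 fold change of each of the 55 tested histone genes (y axis, bars are the SE) by histone type (x axis), for the labels and for the 2 pairs of title blocks. Coloured points passed an adjusted p of 0.05: 1 higher and 5 lower for the labels, 1 and 2 for titles 4-6 against 1-3, and 0 and 9 for titles 10-12 against 7-9.

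Whether the difference between the labels itself differed between Myotube7 to Myotube12 and Myotube1 to Myotube6 was tested directly. Limma called 0 of 55 histone genes and 0.00797% of all genes. EdgeR and DESeq2 also called 0 histone genes, and 0% and 0.231% of all genes. At an unadjusted p under 0.05, 7 members passed. The members' median difference was -0.38 on the log2 scale against -0.01 over all genes, and 50 of 55 were negative. Members that share sequence are not independent in this count. The part of the low Myotube2 in this median was not tested. The value for Hist1h1c was -0.69 (SE 0.18; limma adjusted p = 0.497), that for Hist1h1d -0.40 (limma adjusted p = 0.549) and that for Hist1h2bc -0.30 (limma adjusted p = 0.703).

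Within the wildtype label, Myotube7 to Myotube9 differed from Myotube1 to Myotube3 in 1 histone gene, where 16.8% of all genes were called, 9.79% higher and 6.96% lower. Hist1h1d was higher by 0.30 on the log2 scale (SE 0.09; limma adjusted p = 0.0333). The call was lost without Myotube3, Myotube7 or Myotube8, and with libraries scaled to the reads outside the abundant genes (adjusted p = 0.124). The number called was 2 without Myotube1 or without Myotube2, with 16.9% of all genes called in both cases. It was 0 without Myotube7, with 11.4% of all genes called. Without Myotube8 it was 1 gene that was lower, with 11.7% of all genes called.

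Within the knockout label, Myotube10 to Myotube12 had 6 histone genes lower than Myotube4 to Myotube6 and 0 higher, where 19% of all genes were called, 11.2% higher and 7.89% lower. The members' median was -0.31 against -0.02 over all genes. The H2B gene Hist1h2bj fell furthest: it read 124, 126 and 141 in Myotube4 to Myotube6 and 52.6, 57.5 and 59.1 in Myotube10 to Myotube12. The blocks were well apart, at 2.28-fold (log2 fold change -1.19, SE 0.20; limma adjusted p = 0.00114). Of its 50-base stretches, 59.4% also occurred in another member, so its own level is uncertain. The sum of the H2B genes linked by shared sequence, Hist1h2bj among them, was not called here (log2 fold change -0.19; limma adjusted p = 0.232).

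Hist1h1b, a linker histone gene, read 102, 126 and 115 against 70.2, 76.6 and 62.0, and fell by 0.71 (SE 0.14; limma adjusted p = 0.00354). The blocks were separate. Hist2h2ac and Hist1h2ae of the H2A type fell by 0.81 and 1.09, Hist1h1c by 0.43 and the H3 gene Hist1h3f by 0.50. The sum of the H2A genes linked with Hist1h2ae by shared sequence was not called (log2 fold change -0.22, limma adjusted p = 0.314). That of the H3 genes linked with Hist1h3f passed narrowly (log2 fold change -0.36, limma adjusted p = 0.0496). Without Myotube5 the number called was 3, and 14.2% of all genes. Hist1h1c did not pass without any one of Myotube4, Myotube5, Myotube10, Myotube11 or Myotube12 (limma adjusted p up to 0.126), Hist1h2ae without Myotube5 or Myotube6 (up to 0.0663), and Hist1h3f without any of 8 single libraries (up to 0.169). These 4 block comparisons share libraries in pairs, so their values are given side by side only.

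**Figure D4:**
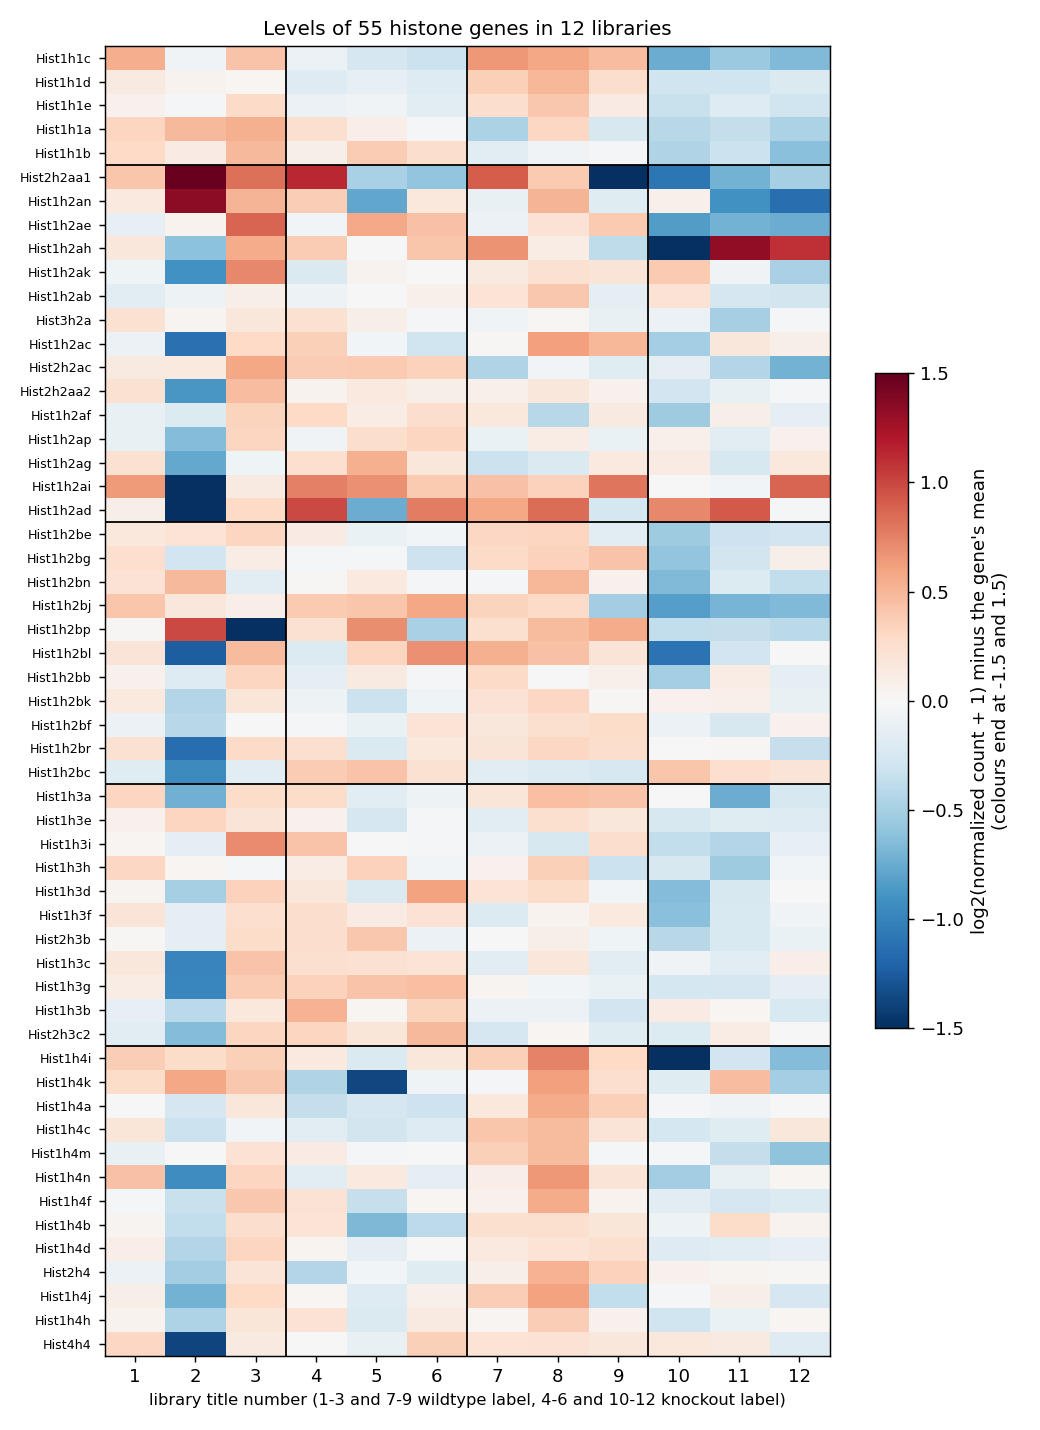
Level of each tested histone gene (rows, grouped by type H1, H2A, H2B, H3, H4) in each library (columns, by title number), as log2 of the normalized count + 1 minus the gene's mean, with colours ending at -1.5 and 1.5. Lines part the types and title blocks. The first 3 rows, Hist1h1c, Hist1h1d and Hist1h1e, are above their mean in columns 7 to 9 and below it in columns 10 to 12, and column 2 is low for many core histone genes.

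The members that fell between the labels were compared by the annotated length of the transcript after the stem-loop, a class chosen after their values were seen. GENCODE M21 gives 840 bases after the stem-loop for Hist1h1c, 4884 for Hist1h1d and 1153 for Hist1h1e. All 5 members that fell were among the 19 with over 100 such bases, whose median log2 fold change was -0.28. The 21 members with 100 bases or fewer had a median of -0.10 and 0 called by limma. The 15 without the pattern in the annotated transcript had a median of -0.17 and 1 called, Hist1h2bc. Some of these transcripts are short, so this class is one of annotation and need not hold genes without a stem-loop. Of all tested genes, 9.07% were called lower and 10.2% higher. For titles 10-12 against 4-6 the order of the medians was the other way, at -0.15 with over 100 bases, -0.24 with 100 or fewer and -0.44 without the pattern, and 3, 2 and 1 members were called lower. Of all genes, 7.89% were called lower there. For titles 10-12 against 7-9 the medians were -0.45, -0.26 and -0.30, with 7, 2 and 0 called lower, and 7.64% of all genes. For titles 4-6 against 1-3 they were -0.08, 0.12 and 0.03, with 1, 0 and 1 called lower, and 7.97% of all genes. For titles 7-9 against 1-3 they were 0.20, 0.21 and -0.05, with 0, 0 and 0 called lower, and 6.96% of all genes. These classes carry no test, and the annotation does not say which ends were present in these cells.

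Promoter sequence was examined because Hist1h1c, Hist1h1d and Hist1h1e moved together. The 130 bases before the RefSeq start of Hist1h1c and Hist1h1e (GRCm38.p6, 5′ to 3′ on the gene's strand) are shown, with the H1 box, the CCAAT box and the TATA box in capitals. The first lies at chr13:23738677-23738806 on the plus strand and the second at chr13:23622559-23622688 on the minus strand.
Hist1h1c: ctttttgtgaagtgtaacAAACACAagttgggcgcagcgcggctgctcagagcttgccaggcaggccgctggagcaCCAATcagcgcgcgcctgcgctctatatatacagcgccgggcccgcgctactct
Hist1h1e: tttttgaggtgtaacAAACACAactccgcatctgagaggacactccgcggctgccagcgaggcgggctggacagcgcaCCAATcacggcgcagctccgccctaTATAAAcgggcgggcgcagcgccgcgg
The H1 box (AAACACA) and CCAAT lie 112 and 54 bases before the start in Hist1h1c, 115 and 52 bases before it in Hist1h1e, and 122 and 51 bases before it in Hist1h1d. The letters TATAAA lie 27 bases before the start of Hist1h1e and 26 before that of Hist1h1d, and are not in the window of Hist1h1c. The layout was not limited to the genes that fell: in Hist1h1b, which did not pass between the labels, the H1 box, the nearest CCAAT and TATAAA lie 117, 53 and 28 bases before the start.

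RefSeq promoters of 250 bases before to 50 after the start were matched for 51 of the 55 tested members, and motifs were searched on both strands. CCAAT was in 82.4% of them, in all of the H1, H2A, H2B and H3 genes but in 3 of 12 H4 genes, against 37.4% of 32851 promoters. TATAAA was in 60.8% against 13.6%. The octamer ATTTGCAT was in 6 of 15 H2A and 4 of 10 H2B promoters and in 0 of the H1, H3 and H4 promoters, against 1.74% of all. AAACACA was in 4 of 5 H1 promoters against 7.18%. The E-box CACGTG, a letter pattern bound by CLOCK and BMAL1, was in 0 of 51 against 7.15%, which says only that these letters are not in these windows. No base was counted in 2 motifs.

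Genes that make, process and carry histones were counted between the labels with the same test. Of all tested genes, 10.2% were called higher and 9.07% lower there, the share to set beside each list. Of 11 variant histone genes, many of which are also expressed outside DNA synthesis, 3 rose and 1 fell. Cenpa, the centromere histone, was higher by 0.69 on the log2 scale (SE 0.19; limma adjusted p = 0.0185), and H2afz and H3f3a were higher by 0.46 and 0.37. H1f0, the linker histone gene of resting and differentiated cells, fell by 0.38 (SE 0.08; limma adjusted p = 0.00553), from 696 ± 34.3 (SD, n = 6) to 538 ± 65.6 normalized counts. The median of this list was 0.04 against -0.00 over all genes.

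Of 18 genes for processing and decay of histone messages, 3 rose and 1 fell, with a median of -0.01. Npat, the coactivator of histone gene transcription at S phase, fell by 0.52 (SE 0.11; limma adjusted p = 0.00485). Upf1, a helicase needed for histone message decay, was higher by 0.50 (SE 0.13; limma adjusted p = 0.0121). Slbp, whose protein binds the stem-loop, read 236 ± 27.5 (SD, n = 6) under the wildtype label and 232 ± 44.7 under the knockout label (log2 fold change -0.04, SE 0.13; limma adjusted p = 0.883).

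Of 14 histone chaperone and acetylation genes, 0 rose and 1 fell, with a median of -0.08. The gene was Asf1a, a chaperone of H3 and H4, which went from 117 ± 15.7 (SD, n = 6) to 54.5 ± 18.2 (log2 fold change -1.16, SE 0.22; limma adjusted p = 0.00222).

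Cell cycle genes were measured beside the histone genes. Between the labels, 10.2% of all genes were called higher and 9.07% lower. Of 39 DNA replication genes, 2 rose and 4 fell, with a median of -0.07. Their summed level, which carries no test, was 8180 to 8661 under the wildtype label and 7389 to 7775 under the knockout label. Mcm6, a subunit of the replicative helicase, fell by 0.83 (SE 0.06; limma adjusted p = 1.09e-06), and Fen1, a nuclease of lagging strand synthesis, was higher by 0.67. Of 21 mitosis genes, 8 rose and 0 fell, with a median of 0.48. Of 10 cell cycle inhibitor genes, 2 rose and 2 fell.

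Some cell type markers also differed between the labels, where 10.2% of all genes were called higher and 9.07% lower. Of 10 myotube markers, 5 rose, Mymk the most, and 3 fell, Myog the most, so the list went both ways. Their summed level, which carries no test, was 17952 to 22465 under the wildtype label and 29428 to 32812 under the knockout label. Of 6 tested myoblast or satellite cell markers, 0 rose and 3 fell, with sums of 579 to 671 and 392 to 539. Of 9 fibroblast markers 1 rose and 1 fell, of 5 endothelial markers 2 rose, and of 2 tested immune markers 0 passed. No marker was at 0 in all libraries. The part of these cells, and of the abundant genes, in the histone values was not tested. In such bulk libraries, fewer cells of a type and less RNA per cell cannot be told apart.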

How the data were processed

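RNA of 12 mouse myotube libraries was measured with a stranded total RNA kit, per the labels' protocols. The authors deposited 1 table of 20201 genes whose values are a signal, normalized counts per gene. The tools named in the submitters' processing notes are Trimmomatic 0.33 (trimming), STAR 2.5.2 (alignment, with mm10 as the build), RSEM 1.3.3 (counting) and DESeq2 (normalization). The gene models counted are not given in the sources used here. Reads of near-identical genes are divided among them by estimate in RSEM.

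The deposited values were whole numbers divided by 1 factor per library in 100% of cases (tolerance 1e-06 reads). These whole numbers are called reads here. For genes that share sequence they can be estimates by RSEM, and the floor does not cover the error of that estimate. Between 50.5% and 66.2% of reads fell on 11 very abundant genes, which lowers the depth left for histone genes. A floor of 3 reads was 2.12 to 5.85 normalized counts, covering counting error only. GENCODE M21, built on GRCm38 (mm10), gave a name to 98.8% of the identifiers.

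Limma 3.58.1 with a trended prior was fitted to log2(value + 1) for 12553 genes with a mean of 10 or more, with Benjamini-Hochberg adjustment over all of them and a threshold of 0.05; such fold changes understate the change of low genes. One fit used the labels and another the 4 title blocks. On the recovered reads, edgeR 4.0.16 (quasi-likelihood) called 2411 genes between the labels and DESeq2 1.42.0 called 2787, against 2416 with limma. Other alternatives were pseudocounts, filters, quantile scaling, scaling each library to its reads outside the abundant genes, summing members linked by shared sequence, and leaving out each library in turn. The fit was tested on simulated data. R 4.3.3 and Python 3.11.15 were used.

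The members, lists and tests were chosen with earlier results of these data known. Named were, per type, the member with the highest level, and the called members with the largest changes in each comparison, beside the members just above and below the minimum; the other called members were named after their values were seen.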

Additional observations from a re-analysis of the deposited data

Results flagged for a closer look

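Within each label, the highest or lowest of the 6 libraries was compared with its nearest neighbour for every tested member. Of 110 such groups, 11 held a library that stood apart, and chance gives about 1 in 20. Myotube2 was that library in 8 of them. It was low for Hist1h1c at 671 normalized counts, where the next library had 936, and for Hist1h2bc at 240, where the next had 395. It was also low for Hist1h2bl at 12.4, Hist1h2br at 40.3, Hist1h3a at 43.4, Hist1h4d at 218 and Hist4h4 at 10.8, and it was high for Hist1h2an at 57.3.

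The other 3 were in different libraries. Hist2h2aa1 stood at 66.8 in Myotube4, where the next value was 21.2. Hist1h4c stood at 248 in Myotube12, where the next was 195, and Hist1h4i at 51.6 in Myotube8, where the next was 39.6. Hist2h2aa1 is a near-identical copy of Hist2h2aa2.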

How the results depend on the processing

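With libraries scaled to the reads outside the abundant genes in place of the deposited factors, all genes shifted together, to medians between -0.17 and -0.08. The members called then became 14 between the labels, 7 for titles 4-6 against 1-3 and 15 for titles 10-12 against 7-9. They were 3 for titles 7-9 against 1-3 (all lower) and 10 for titles 10-12 against 4-6. In that order, the share of members called was 25.5%, 12.7%, 27.3%, 5.45% and 18.2%. That of all genes was 22.4%, 23.4%, 18.9%, 18.5% and 21.1%. The H2B sum moved by the common shift from 0.04 to -0.12, a change of sign. With sequence-sharing members summed to 21 features, 1 was called for titles 4-6 against 1-3 and 5 for titles 10-12 against 7-9. The share of all genes called there was 18.8% and 16.5%. For titles 7-9 against 1-3, 0 were called with no filter and 0 with quantile scaling, where 9.28% and 18.1% of all genes were. Leaving out 1 library gave 4 to 10 members between the labels, 2 to 5, 3 to 17, 0 to 2 and 3 to 9 in the comparisons of titles 4-6 against 1-3, 10-12 against 7-9, 7-9 against 1-3 and 10-12 against 4-6, and 0 to 0 for the difference between them; the 1 call of titles 7-9 against 1-3 was a lower gene without Myotube8. The share of all genes called then lay between 16.2% and 21.8% for the labels and between 12.5% and 19.2% for titles 4-6 against 1-3. For titles 10-12 against 7-9 it lay between 9.49% and 24.5%. For titles 7-9 against 1-3 it lay between 11.4% and 17.2%, and for titles 10-12 against 4-6 between 14.2% and 27.2%. The cause of the changes with single libraries was not tested.

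Between the labels, Hist1h1c, Hist1h1d, Hist1h1e and Hist1h2bc passed under every alternative run on single genes; Hist1h2be and Hist1h4i did not. No paired analysis was possible because the labels give no replicate numbers shared between the groups. Depth limits the genes near the minimum, where 3 reads are up to 5.85 normalized counts.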

Other observations

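Within each label, mitosis genes differed between the title blocks in the other direction from their difference between the labels. Across the labels, 12 rose and 0 fell in titles 4-6 against 1-3, and 12 rose and 0 fell in titles 10-12 against 7-9. Of all genes, 10.8% and 8.84% were called higher in these 2 comparisons. Of 21 genes, 10 fell and 0 rose in Myotube7 to Myotube9 against Myotube1 to Myotube3, and 8 fell and 0 rose in Myotube10 to Myotube12 against Myotube4 to Myotube6 (limma, adjusted p). Of all genes, 6.96% and 7.89% were called lower in those comparisons. The summed level of the mitosis genes was 4407 to 5691 normalized counts in Myotube1 to Myotube3 and 6244 to 6682 in Myotube4 to Myotube6. It was 3341 to 3651 in Myotube7 to Myotube9 and 5245 to 5500 in Myotube10 to Myotube12. Between the labels the called genes were Mki67, Top2a, Aurka, Ccnb2, Kif23, Tpx2, Prc1 and Birc5. The Aurka gene, which encodes a spindle kinase, was higher under the knockout label by 0.81 on the log2 scale (SE 0.17; limma adjusted p = 0.00409).

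The linker histone variant gene H1f0 was lower under the knockout label among Myotube1 to Myotube6 and among Myotube7 to Myotube12. It read 698 ± 11.6 (SD, n = 3) in Myotube1 to Myotube3, 595 ± 12.5 in Myotube4 to Myotube6, 694 ± 52.9 in Myotube7 to Myotube9 and 481 ± 27.5 in Myotube10 to Myotube12. Among other RNAs that are short or lack a poly(A) tail, 1 of 13 rose and 1 fell between the labels. Of all genes, 10.2% were called higher and 9.07% lower there. Malat1, a nuclear non-coding RNA, was higher by 1.02 (SE 0.14; limma adjusted p = 0.000232), and Neat1, the scaffold RNA of paraspeckles, fell by 0.78 (SE 0.14).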
